A study of Mus musculus with 4 samples.

Results

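Ribonucleotide reductase and the enzymes that supply nucleotides for DNA synthesis were represented by 8 genes, Rrm1, Rrm2, Rrm2b, Tyms, Dut, Tk1, Dck and Cad, each found by its gene symbol among the 49585 genes of the expression table. Each symbol matched 1 gene, and all 8 were among the 12669 genes kept as expressed, those that reached an FPKM of 1 in any library. FPKM is a fragment count scaled by exon length and by library size. RNA was sequenced from cultured cells of 2 clones of the murine 4T1 line, a triple-negative mammary carcinoma line, each grown from a single cell by limiting dilution. The 4T1-HM clone was chosen by the study as highly metastatic and the 4T1-LM clone as lowly metastatic. Each clone was grown for 48 h with 50 μmol/L of deferasirox (DFX), an iron chelator given by mouth in patients with iron overload, or with its solvent DMSO, giving the conditions HM_Ctrl, HM_DFX, LM_Ctrl and LM_DFX. Each condition had 1 library, so the differences below were not checked against replicates and are given without p-values. Each metastatic class was 1 clone, so that the class and the clone cannot be told apart.

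Ribonucleotide reductase turns ribonucleotides into the deoxyribonucleotides from which DNA is built. The enzyme joins a large subunit, Rrm1, which binds the substrate and the regulators, with a small subunit, Rrm2 or Rrm2b, which holds an iron centre and the tyrosyl radical that the reaction needs. Rrm2 serves dividing cells in S phase, and Rrm2b, a known p53 target, serves resting cells and DNA repair. Around the reductase, Cad begins pyrimidine synthesis, Tyms and Dut provide thymidylate and keep uracil out of DNA, and Tk1 and Dck recover deoxynucleosides.

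The library totals at which the deposited FPKM values gave whole fragment counts lay between 14363063 and 21883855, and the genes with matching coordinates held 11955196 to 18160892 fragments. Of the 8 epithelial markers 7 were above 1 FPKM in every library, and Cldn7 was at 0.07 to 0.62 FPKM. Of the 22 markers of leukocytes, fibroblasts, endothelium and erythroid cells, 21 were under 1 FPKM in every library and 9 were at 0 throughout. The exception among these 22 was Pdgfra, a growth factor receptor of mesenchymal cells, at 2.77 to 5.50 FPKM.

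The sequences just before the start of 3 members are shown because these genes span the results below, from the large subunit that differed least of the 3 to the kinase and the small subunit that differed most. Sequences are from RefSeq (GRCm38.p6), 5′ to 3′ on the strand of the gene, and capitals mark the pentamer CCAAT. The Rrm1 stretch is chr7:102441445-102441694 on the plus strand, the Rrm2 stretch is chr12:24708004-24708240 on the plus strand and the Tk1 stretch is chr11:117826093-117826264 on the minus strand, each ending before both the RefSeq and the GENCODE start.
Rrm1: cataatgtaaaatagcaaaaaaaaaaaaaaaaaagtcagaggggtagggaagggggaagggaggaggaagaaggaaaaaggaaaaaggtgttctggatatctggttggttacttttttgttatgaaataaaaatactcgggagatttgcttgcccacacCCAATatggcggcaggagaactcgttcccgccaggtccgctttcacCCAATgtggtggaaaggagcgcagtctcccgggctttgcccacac
Rrm2: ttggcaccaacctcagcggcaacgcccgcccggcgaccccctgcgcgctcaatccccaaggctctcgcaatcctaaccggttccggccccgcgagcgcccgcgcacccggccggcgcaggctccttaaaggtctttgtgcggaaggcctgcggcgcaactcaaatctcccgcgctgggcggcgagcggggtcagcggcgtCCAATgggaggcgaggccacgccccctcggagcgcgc
Tk1: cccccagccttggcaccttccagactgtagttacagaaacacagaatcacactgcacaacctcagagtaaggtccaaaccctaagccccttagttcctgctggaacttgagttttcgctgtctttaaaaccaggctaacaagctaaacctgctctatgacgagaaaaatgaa
In the 250 bases before the RefSeq start, searched on both strands, CCAAT lay at positions -91 to -87 and -45 to -41 in Rrm1 and at -50 to -46 in Rrm2, counted back from the start. It was in no other of the 7 members with an entry, and in 33.8% of all 32851 promoters of that length. An E2F octamer (TTTCCCGC, TTTCGCGC, TTTGCCGC or TTTGGCGC) was in none of the 7 windows and in 1.86% of all promoters. A CHR hexamer (TTTGAA or TTCGAA) was in the window of Dck alone, at -245 to -240 on the minus strand, against 17.1% of all promoters. No match overlapped another. The Dut window, chr2:125247265-125247514 on the plus strand, lay wholly inside the GENCODE gene, which starts at 125247190. Its lack of matches is thus not about the bases before that start. The windows of Rrm2, Tk1 and Dck ran past the GENCODE start in part.

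The first comparison asked how the reductase and nucleotide supply genes of each clone differed after DFX. In both clones all 8 members were lower with DFX than with DMSO. Calls were made at a difference of at least 2-fold on the log2(FPKM + 1) scale. In 4T1-HM, 3 of the 8 were lower by that much, against 12.4% of all 12669 expressed genes, and none was higher, against 6.93%. In 4T1-LM the same 3 genes, Rrm2, Tk1 and Cad, were lower, against 8.72% of expressed genes, and none was higher, against 7.09%. How many of all expressed genes were lower in both clones was not counted. The median log2 difference of the members was -0.76 in 4T1-HM and -0.75 in 4T1-LM, beside -0.10 and -0.04 over all expressed genes. In all, 55.9% of expressed genes were below 0 in 4T1-HM and 52.6% in 4T1-LM. The 8 FPKM values summed to 248 in HM_Ctrl and 119 in HM_DFX, and to 335 in LM_Ctrl and 142 in LM_DFX. In bulk RNA, fewer cells making a transcript and less of it per cell cannot be told apart. Scaling the libraries by median ratios moved the median of all genes in 4T1-HM from -0.10 to 0.00 on the log2 scale, and the calls over all genes from 1568 lower and 878 higher to 1280 lower and 1128 higher. The same 3 members were called under it. At a 1.5-fold threshold 5 members were lower in 4T1-HM, against 26% of expressed genes, and 4 in 4T1-LM, against 20%.

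**Figure D1:**
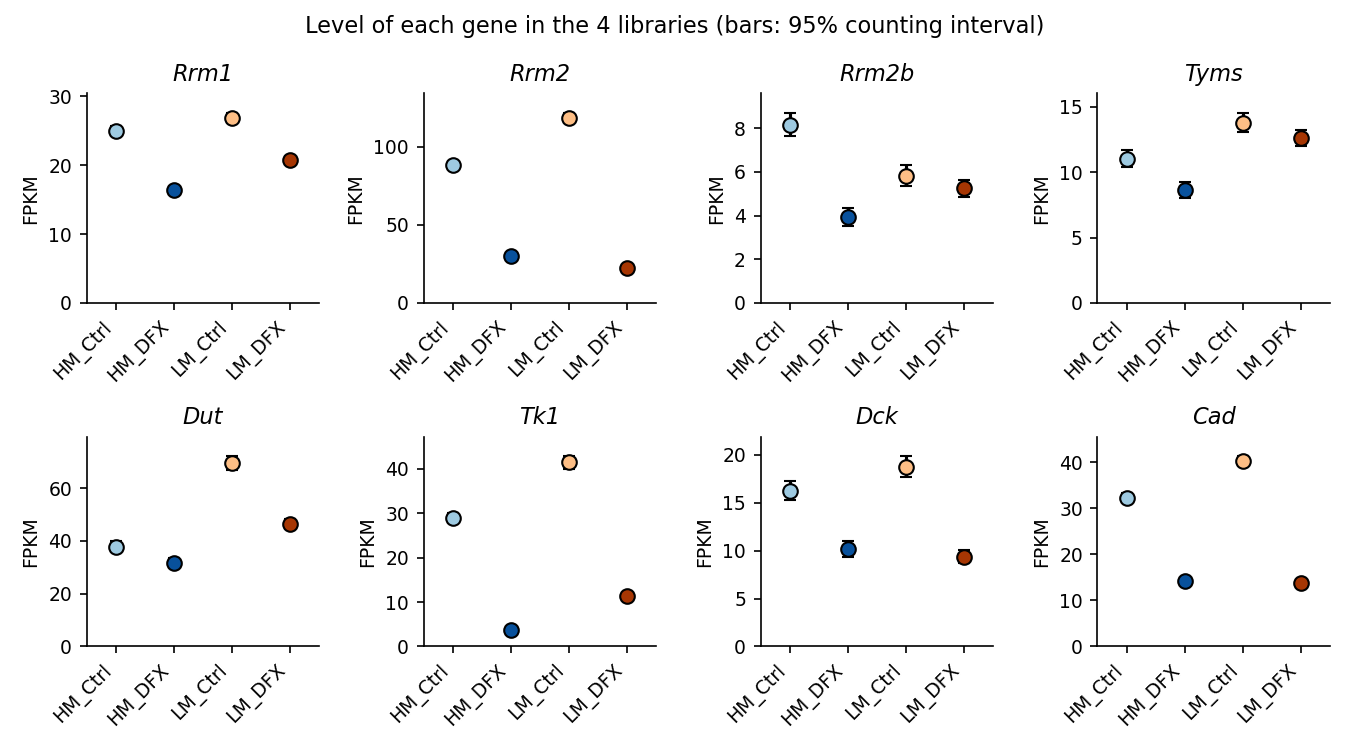
FPKM of the 8 members in the 4 libraries, 1 panel per gene, each on its own linear axis. There is 1 point per library, with bars for the 95% counting interval. The DFX points lie below the control points of the same clone for every member, most widely for Tk1 and Rrm2.

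Among the reductase subunits, Rrm2 (ENSMUSG00000020649, mm10 chr12:24708241-24714146, plus strand) was the most highly expressed of the 8 members in both controls. Its level was 88.4 FPKM in HM_Ctrl, 30.3 FPKM in HM_DFX, 119 FPKM in LM_Ctrl and 22.6 FPKM in LM_DFX. Both DFX libraries were thus lower than both controls, and the clone with the higher control had the lower DFX value. The log2 difference with DFX was -1.51 in 4T1-HM, the 513th lowest of the 12669 expressed genes, and -2.34 in 4T1-LM, the 70th lowest. Without a pseudocount, the FPKM ratio of DFX to control was 0.343 in 4T1-HM (95% exact interval 0.321 to 0.365) and 0.190 in 4T1-LM (0.179 to 0.202), from 4104 and 1206 fragments in HM_Ctrl and HM_DFX and 5176 and 1370 in LM_Ctrl and LM_DFX. These intervals and those below cover counting error only and not the variation between cultures.

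Rrm1 (ENSMUSG00000030978, chr7:102441695-102469771, plus strand), the large subunit, was at 24.9 FPKM in HM_Ctrl, 16.4 FPKM in HM_DFX, 26.9 FPKM in LM_Ctrl and 20.7 FPKM in LM_DFX. The difference did not reach 2-fold in either clone. Its FPKM ratio was 0.658 in 4T1-HM (0.627 to 0.691) and 0.772 in 4T1-LM (0.742 to 0.804). Rrm2b (ENSMUSG00000022292, chr15:37923952-37961318, minus strand), the other small subunit, was the lowest of the 8 in both controls, at 8.15 FPKM in HM_Ctrl and 5.82 FPKM in LM_Ctrl, and was at 3.93 FPKM in HM_DFX and 5.24 FPKM in LM_DFX. In 4T1-HM the ratio was 0.481 (0.425 to 0.545), while on the log2(FPKM + 1) scale the difference was -0.89 and not called, and with a pseudocount of 0.1 it was -1.04 and would be called. In 4T1-LM the ratio was 0.901, and its interval of 0.807 to 1.01 included 1. The exon length implied by the FPKM values of Rrm2b was 6437 bases, against 9134 in the annotation. In addition, 8.04% of its exon bases overlap the opposite-strand gene Gm49085, so its level per length is uncertain. For the other members the length was the union of all annotated exons, 11012 bases for Rrm1, 6089 for Tyms and 5198 for Tk1. Such a union can exceed the length of the transcripts present, so levels compared between genes depend on it. A ratio of 1 gene between libraries does not. Of the 31-base sequences of the members, between 0% and 14.4% recur in other genes, the highest share being that of Rrm2b.

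The balance of the subunits differed between libraries in transcript level per length. These values depend on the exon lengths used, 2771 bases for Rrm2, 11012 for Rrm1 and 6437 for Rrm2b. The counting intervals leave out any error in the lengths, which scales a ratio alike in all libraries. In fragments Rrm1 exceeded Rrm2 in HM_Ctrl, at 4594 against 4104, and in both DFX libraries. In LM_Ctrl it did not, at 4652 against 5176. Rrm2 stood at 3.55 times Rrm1 in HM_Ctrl (3.40 to 3.70) and 1.85 times in HM_DFX (1.72 to 1.98). In 4T1-LM it stood at 4.42 times Rrm1 in LM_Ctrl (4.25 to 4.60) and 1.09 times in LM_DFX (1.03 to 1.16). The share of Rrm2b in the summed FPKM of both small subunits was 8.44% in HM_Ctrl (7.89 to 9.02) and 11.5% in HM_DFX (10.3 to 12.7). In 4T1-LM it was 4.67% in LM_Ctrl (4.30 to 5.07) and 18.8% in LM_DFX (17.5 to 20.2), so that the lowest and the highest share were both in this clone. No interval of the share overlapped another. Rrm2b itself was not higher with DFX in either clone, and the larger shares went with the lower Rrm2. Both small subunits together were at 96.6 FPKM and 34.2 FPKM in HM_Ctrl and HM_DFX, and at 124.6 FPKM and 27.8 FPKM in LM_Ctrl and LM_DFX.

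**Figure D2:**
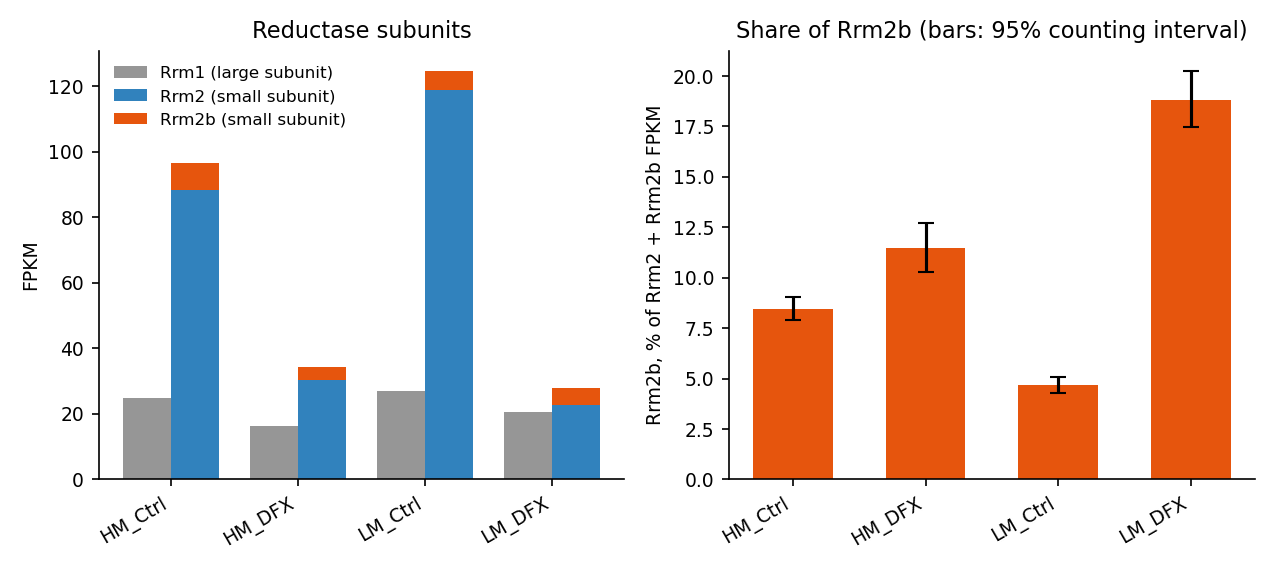
Left, FPKM of Rrm1 beside the stacked FPKM of Rrm2 and Rrm2b in each library. Right, the share of Rrm2b in the FPKM of both small subunits in percent with its 95% counting interval, which is lowest in LM_Ctrl at 4.67% and highest in LM_DFX at 18.8%.

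Of the salvage kinases, Tk1 (ENSMUSG00000025574, chr11:117815526-117826092, minus strand), the cytosolic thymidine kinase of cycling cells, differed most in 4T1-HM. It was at 28.9 FPKM in HM_Ctrl, 3.71 FPKM in HM_DFX, 41.4 FPKM in LM_Ctrl and 11.3 FPKM in LM_DFX. Both DFX values lay below both controls, with HM_DFX the lowest. The log2 difference was -2.67 in 4T1-HM, the 50th lowest of the expressed genes, and -1.78 in 4T1-LM, the 209th lowest. The FPKM ratio was 0.128 in 4T1-HM (0.113 to 0.145), from 2514 and 277 fragments, and 0.274 in 4T1-LM (0.257 to 0.292), from 3387 and 1290 fragments. Dck (ENSMUSG00000029366, chr5:88764996-88783281, plus strand), which phosphorylates deoxycytidine and the purine deoxynucleosides, was at 16.2 FPKM in HM_Ctrl, 10.1 FPKM in HM_DFX, 18.7 FPKM in LM_Ctrl and 9.33 FPKM in LM_DFX. Its difference was not called in either clone, at -0.63 in 4T1-HM and -0.93 in 4T1-LM on the log2(FPKM + 1) scale, although the FPKM ratio in 4T1-LM was 0.499 (0.454 to 0.547). Tk1 was expressed at 1.78 times Dck in HM_Ctrl (1.66 to 1.92) and at 0.367 times in HM_DFX (0.316 to 0.425), and at 2.21 times in LM_Ctrl (2.07 to 2.37) and 1.22 times in LM_DFX (1.11 to 1.33). The order of the kinases was thus reversed in HM_DFX alone. This order depends on the exon lengths used, 5198 bases for Tk1 and 3781 for Dck.

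Cad (ENSMUSG00000013629, chr5:31054780-31078479, plus strand), which carries the opening steps of pyrimidine synthesis, was the third member called in both clones. It was at 32.3 FPKM in HM_Ctrl, 14.2 FPKM in HM_DFX, 40.2 FPKM in LM_Ctrl and 13.8 FPKM in LM_DFX. The DFX libraries were close to each other and below both controls. The log2 difference was -1.13 in 4T1-HM and -1.48 in 4T1-LM, and the FPKM ratios were 0.439 (0.414 to 0.464) and 0.344 (0.328 to 0.361). Median-ratio scaling brought the log2 difference of Cad in 4T1-HM to -1.002, at the limit of the call.

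Neither enzyme of thymidylate supply was called in either clone. Tyms (ENSMUSG00000025747, chr5:30058202-30073617, minus strand), thymidylate synthase, was at 11.0 FPKM in HM_Ctrl, 8.63 FPKM in HM_DFX, 13.8 FPKM in LM_Ctrl and 12.6 FPKM in LM_DFX. Its ratio was 0.785 in 4T1-HM (0.715 to 0.862) and 0.915 in 4T1-LM (0.851 to 0.984). Dut (ENSMUSG00000027203, chr2:125247190-125258608, plus strand), which removes dUTP and yields the precursor of thymidylate, was at 37.9 FPKM in HM_Ctrl, 31.7 FPKM in HM_DFX, 69.4 FPKM in LM_Ctrl and 46.5 FPKM in LM_DFX. Here, as for Tyms, LM_DFX lay above HM_Ctrl, so that the DFX libraries did not all lie below the controls. The ratio of Dut was 0.838 in 4T1-HM (0.775 to 0.906) and 0.669 in 4T1-LM (0.633 to 0.707).

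**Figure D3:**
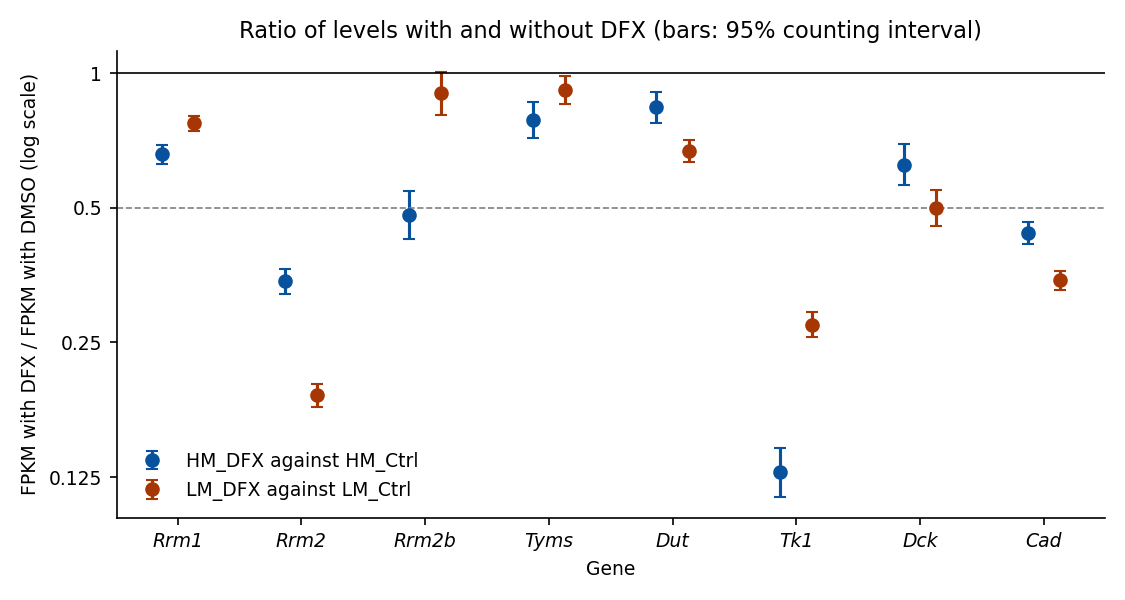
FPKM ratio of DFX to control for each member on a log axis, 1 point per clone with its 95% exact counting interval, a line at 1 and a dashed line at 0.5. Rrm2 and Cad lie lower in 4T1-LM, Tk1 and Rrm2b lie lower in 4T1-HM, and the intervals of Tyms overlap.

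The ratio was lower in 4T1-HM for 4 members, Rrm1, Rrm2b, Tyms and Tk1, and lower in 4T1-LM for the other 4, Rrm2, Dut, Dck and Cad. The counting intervals of the clones did not overlap for 7 of the 8 members, Tyms being the exception. They did not overlap either for 47% of the 9784 expressed genes whose fragments were recovered as whole numbers above 0 in every library, or for 60.2% of the 5300 of these with at least 277 fragments in each, the lowest count of a member. On the log2 scale the response in 4T1-HM minus that in 4T1-LM was 0.83 for Rrm2, -0.77 for Rrm2b and -0.88 for Tk1, and lay between -0.22 and 0.34 for the other members. Whether the clones responded differently could not be tested against the variation between cultures.

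In the order of levels, Rrm2 and Dut were the first and the second in both controls, and Rrm2b was the last. With DFX, Dut stood first and Rrm2 after it in both clones, and the last was Tk1 in HM_DFX and Rrm2b in LM_DFX. Neighbours in these orders whose counting intervals overlapped were Dut and Rrm2 in HM_DFX, Rrm2b and Tk1 in HM_DFX, and Tk1 and Cad in LM_Ctrl. All other neighbours were apart by more than counting error. The orders also rest on the exon lengths used, whose error the intervals leave out.

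The second comparison set the clones side by side without DFX. No member was called, against 3.15% of expressed genes lower and 3.65% higher in HM_Ctrl than in LM_Ctrl. Of the 8 members, 7 were lower in HM_Ctrl, with 48.2% of all expressed genes below 0, and the median log2 difference was -0.31 beside 0.01 over all expressed genes. Dut had the largest difference, with a log2 value of -0.86 and an FPKM ratio of HM_Ctrl to LM_Ctrl of 0.545 (0.512 to 0.581). Rrm2b was the member higher in HM_Ctrl, with a ratio of 1.402 (1.26 to 1.56). With DFX, 1 of the 8, Tk1, was lower by at least 2-fold in HM_DFX than in LM_DFX, against 5.05% of expressed genes, with a log2 difference of -1.39 and a ratio of 0.327 (0.286 to 0.373). None was higher, against 3.31%, and 5 of the 8 were below 0, against 54.2%. At a 1.5-fold threshold 1 member was lower between the controls, against 8.7% of expressed genes, and 1 between the DFX libraries, against 14.6%. Rrm2 was at a ratio of 0.745 between the controls (0.715 to 0.776) and 1.34 between the DFX libraries (1.24 to 1.45). These comparisons share their libraries with those of DFX against DMSO.

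The other genes of nucleotide metabolism were a list of 60, of which 57 were expressed. In 4T1-HM 6 of the 57 (10.5%) were lower with DFX by at least 2-fold, against 12.4% of all expressed genes, and 1 was higher, against 6.93%. In this clone 40 of the 57 (70.2%) were below 0, against 55.9%, with a median log2 difference of -0.31. In 4T1-LM 7 (12.3%) were lower, against 8.72%, and none was higher, against 7.09%. Here 42 (73.7%) were below 0, against 52.6%, with a median of -0.47. The 4 lower in both clones were Nudt1, Ctps2, Dctd and Nt5e. The matching count over all expressed genes was not made. Under median-ratio scaling 4 of the list were called lower in 4T1-LM, against 7. Of the 7, Nudt1 and Ctps2 lay nearest the limit of the call, at -1.02 and -1.03.

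Of the 8 reductase partners and regulators of the deoxynucleotide pool, 2 were called lower in 4T1-HM, against 12.4% of all expressed genes. In 4T1-LM 1 was lower, against 8.72%, and the medians of the log2 difference were -0.63 in 4T1-HM and -0.68 in 4T1-LM. Nudt1, which clears oxidised purine nucleotides, was at 5.55 FPKM in HM_Ctrl, 2.22 FPKM in HM_DFX, 6.56 FPKM in LM_Ctrl and 2.73 FPKM in LM_DFX, with a log2 difference of -1.02 in both clones. Glrx, a glutaredoxin that can pass electrons to the reductase, was at 12.8, 5.54, 17.3 and 8.26 FPKM in that order of libraries, and its log2 difference was -1.08 in 4T1-HM and -0.98 in 4T1-LM. Of the 6 other nucleotide genes called lower in 4T1-HM, Nudt1 and Glrx lay nearest the limit of the call. Under median-ratio scaling 4 were called. Among the 7 further genes of pyrimidine synthesis, 1 was lower in each clone, Ctps2, a CTP synthase, with log2 differences of -1.29 and -1.03. The shares of all expressed genes called lower were 12.4% in 4T1-HM and 8.72% in 4T1-LM. Nme2, a nucleoside diphosphate kinase, was called higher in 4T1-HM from 21 fragments in HM_Ctrl and 53 in HM_DFX, and 47.9% of its 31-base sequences occur in other genes, so that its value is uncertain.

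In 4T1-HM 12.4% of all expressed genes were called lower and 6.93% higher, and in 4T1-LM 8.72% and 7.09%. Beside these shares, none of the 15 purine synthesis genes was called in either clone, and their medians were -0.31 and -0.49. Over both clones the largest difference was that of Pfas, an enzyme of the purine ring's assembly, at -0.93 in 4T1-LM and -0.91 in 4T1-HM, from 15.6 to 7.82 FPKM in 4T1-HM and from 16.3 to 8.10 FPKM in 4T1-LM. In 4T1-HM alone the phosphoribosyl pyrophosphate synthetase Prps2 differed slightly more, at -0.93. The thymidylate and folate genes split evenly, with 4 of 8 below 0 in each clone, against 55.9% and 52.6% of all expressed genes. Dctd, which deaminates dCMP towards thymidylate, was the gene called in both, at 12.2 FPKM in HM_Ctrl, 4.62 FPKM in HM_DFX, 17.6 FPKM in LM_Ctrl and 7.64 FPKM in LM_DFX. The mitochondrial folate enzyme Mthfd2, chosen after its values were seen, lay on the other side, with log2 differences of 0.84 in 4T1-HM and 0.62 in 4T1-LM that were not called.

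Of the 11 salvage and transport genes none was called in 4T1-HM, against 12.4% of all expressed genes lower and 6.93% higher. In 4T1-LM 2 were lower, against 8.72%. These were Slc29a1, an equilibrative nucleoside transporter, with a log2 difference of -1.05 in 4T1-LM and -0.94 in 4T1-HM, and Pnp, a purine nucleoside phosphorylase, with -1.03 and -0.25. For Pnp, 96.0% of 31-base sequences recur in other gene entries, among them a second entry also named Pnp. On the same strand 100% of its exon bases are overlapped by other entries. Its reads may thus have been split, and its value is uncertain. Of the 8 expressed genes of nucleotide breakdown 2 were lower in each clone, against 12.4% of all expressed genes in 4T1-HM and 8.72% in 4T1-LM. Nt5e, the ecto-5′-nucleotidase CD73, was at 43.7 FPKM in HM_Ctrl, 11.9 FPKM in HM_DFX, 48.7 FPKM in LM_Ctrl and 22.2 FPKM in LM_DFX, with log2 differences of -1.79 and -1.10. Nt5c2, a cytosolic nucleotidase, was called in 4T1-LM at -1.06 and stood at -0.83 in 4T1-HM. Xdh, xanthine oxidoreductase, was called in 4T1-HM at -1.73, with 45.7 FPKM in HM_Ctrl and 13.1 in HM_DFX, and stood at 0.91 in 4T1-LM, with 11.0 FPKM in LM_Ctrl and 21.5 in LM_DFX.

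**Figure D4:**
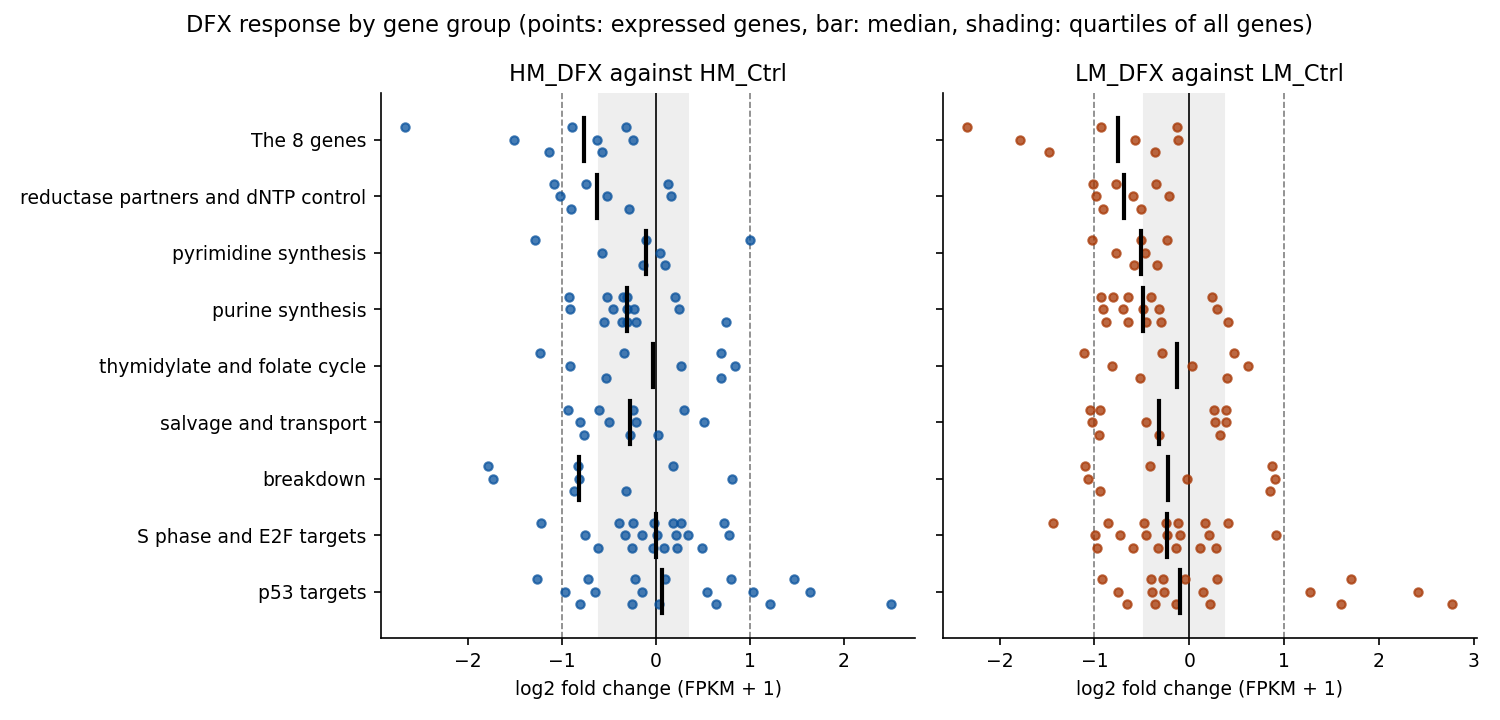
Log2 difference of FPKM + 1 with DFX for each expressed gene of nucleotide metabolism, of S phase and of the p53 targets, 1 point per gene and 1 panel per clone, with a bar at each median, dashed lines at 2-fold and shading between the quartiles of all expressed genes. The 8 members have medians of -0.76 and -0.75, and the thymidylate and folate genes lie on both sides of 0.

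Between the controls, 46 of the 57 other nucleotide genes had a lower level in 4T1-HM, against 48.2% of all expressed genes, and the median log2 difference of the list was -0.32, beside 0.01 over all genes. The genes called were Gart, a purine synthesis enzyme, at -1.04, and Xdh at 1.96, 1 in each direction against 3.15% lower and 3.65% higher over all genes. Between the DFX libraries 3 were lower in HM_DFX, Samhd1, Cda and Upp1, against 5.05% of all genes, and 1 was higher, Nme2, against 3.31%, with a median over the list of -0.27, beside -0.05 over all genes.

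Rrm2 and Tk1 are genes of S phase, and 20 other S phase genes and E2F targets were set beside them. In 4T1-HM 1 of the 20, the helicase subunit Gins2, was lower by at least 2-fold, at -1.23, against 12.4% of all expressed genes, and the median log2 difference was -0.00. In 4T1-LM 1 was lower, the cyclin Ccne1 at -1.44, against 8.72%, and the median was -0.24. Between the controls 18 of the 20 had a lower level in 4T1-HM, against 48.2% of all expressed genes, at a median of -0.48, and Uhrf1 was called at -1.02, against 3.15%. Of 18 p53 targets, the group to which Rrm2b also belongs, 5 were higher in 4T1-HM with DFX, Cdkn1a, Mdm2, Gadd45a, Trp53inp1 and Fas, against 6.93% of all expressed genes, and 1, Fdxr, was lower, against 12.4%. In 4T1-LM 5 were higher, Cdkn1a, Gadd45a, Trp53inp1, Mdm2 and Bbc3, against 7.09%, and none was lower, against 8.72%. The cell cycle inhibitor Cdkn1a had log2 differences of 2.50 in 4T1-HM and 2.78 in 4T1-LM. The medians of the p53 targets were 0.07 and -0.09, and Rrm2b stood at -0.89 and -0.13. The summed FPKM of the 8 epithelial markers went from 1783 with DMSO to 575 with DFX in 4T1-HM and from 2288 to 1104 in 4T1-LM, lower with DFX as the members were. Of the 7 expressed markers 5 were called lower in 4T1-HM, against 12.4% of all expressed genes, and in 4T1-LM 2 were lower, against 8.72%, and 1 higher, against 7.09%. The part of this shift in the differences of the members was not tested.

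The genes whose profile over the 4 libraries was most like that of Rrm2, by Euclidean distance of centred log2(FPKM + 1) values among 6429 genes at 5 FPKM or more in every library, were Ier2 at a distance of 0.239, Tuba1c at 0.283, Tuba4a at 0.294, Tuba1a at 0.295 and Ctxn1 at 0.319. The genes nearest to Rrm2b were Commd10 at 0.0914, Adam9 at 0.0948, Lama5 at 0.104, Frrs1 at 0.118 and Capg at 0.127. No member was among either set by construction, and 4 libraries give little to tell profiles apart.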

How the data were processed

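Poly(A) RNA of each culture was sequenced as paired reads from directional libraries. Per the submitters' processing notes, FastQC, Trimmomatic, HISAT2 and featureCounts were used with the mouse build mm10. Versions and the strand setting are not given in the sources used here. The authors deposited FPKM values, normalized to exon length and library size. The authors' edgeR comparison was not repeated, since each condition has 1 library.

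Differences were computed as log2(FPKM + 1) for genes that reached 1 FPKM in any library, and called at 2-fold. Fragment counts were recovered from the FPKM values with GENCODE M21 exon lengths, and came out whole within 0.02 in all libraries for 96.8% of 18235 genes. From these, 95% exact binomial intervals of ratios and exact Poisson intervals of levels were computed (Python 3.11.15, scipy 1.17.1). Scripts were tested on simulated data. For Glrx, Pnp, Nt5c2 and Cdkn1a no exon length could be solved and no interval is given.

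The members and all gene lists were chosen with earlier results of these data known. Named were all members, every other nucleotide gene past 2-fold with DFX in either clone, the largest difference of each group, members of context lists where 5 or fewer were called, and the 5 genes nearest to Rrm2 and to Rrm2b. Gart, Samhd1, Cda and Upp1, called between the clones, and Mthfd2, Prps2, Pdgfra and Cldn7 fall outside this rule and were named after their values were seen. The settings varied were the pseudocount (0.1), the filter (none, or a mean of 1 FPKM), median-ratio and 75th percentile scaling and the threshold (1.5-fold). Protein sequences were not used here.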

Additional observations from a re-analysis of the deposited data

Results flagged for a closer look

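Of the 57 expressed other nucleotide genes, 12 differed with DFX in opposite directions in the 2 clones. Among these, Xdh and Nme2 alone reached 2-fold in either clone and were flagged. The same count over all expressed genes was not made. Xdh had a log2 difference of -1.73 in 4T1-HM and 0.91 in 4T1-LM, from 7026 and 1726 fragments in HM_Ctrl and HM_DFX and 1592 and 4324 in LM_Ctrl and LM_DFX. Nme2 had a log2 difference of 1.00 in 4T1-HM and -0.47 in 4T1-LM, from 21 and 53 fragments and from 13 and 6 fragments, and 48.9% of its exon bases overlap the readthrough gene Gm20390. With 1 library per condition neither difference between the clones was tested.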

How the results depend on the processing

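No paired analysis was possible because each condition has 1 library, and for the same reason no library could be left out. Depth limited Nme2 most among the genes named, with 6 to 53 fragments, while each member had at least 277. Every member kept the direction of its difference with DFX under every alternative run. A 1.5-fold threshold called 5 members lower in 4T1-HM, against 3, and 1 member lower between the controls, against none. With it, 18 other nucleotide genes were lower and 6 higher in 4T1-HM, 23 lower and 4 higher in 4T1-LM, 9 lower between the controls, and 13 lower and 3 higher between the DFX libraries. A pseudocount of 0.1 gave 12 other nucleotide genes lower in 4T1-LM, against 7, and median-ratio scaling gave 4. In 4T1-HM the pseudocount gave 9, against 6, and median-ratio scaling gave 4. That scaling gave 1010 of all 12669 expressed genes lower in 4T1-LM, against 1105. The list's larger share of lower genes than over all genes in 4T1-LM was thus not kept under median-ratio scaling. With the pseudocount of 0.1 Rrm2b was also called in 4T1-HM, making 4 members. Over all expressed genes that pseudocount gave 2397 lower in 4T1-HM against 1568, 1721 lower and 1349 higher in 4T1-LM against 1105 and 898, 674 lower and 883 higher between the controls against 399 and 462, and 1183 lower and 810 higher between the DFX libraries against 640 and 419. The 1.5-fold threshold gave 3297 lower and 2031 higher in 4T1-HM, 2528 and 2088 in 4T1-LM, 1102 and 1329 between the controls, and 1848 and 1260 between the DFX libraries.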
